A study of Rattus norvegicus and Mus musculus with 3 samples.

Results

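The mitochondrial ribosomal protein genes are the nuclear genes named Mrpl or Mrps followed by a number, which encode the protein parts of the ribosome inside mitochondria. They were taken by symbol alone, ignoring case, as Mrpl or Mrps with a number and at most 1 further letter. This found 79 of the 30438 genes listed in both rat tables and 78 of the 34714 listed in the mouse table. All 78 mouse names had a rat partner, and Mrps21l, a gene named for its likeness to Mrps21, was listed in the rat tables only. Hippocampal RNA was sequenced in 3 libraries, 1 per group. The mouse group is the wild type of the 3xTg-AD line at 6 months of age, and both rat groups are labelled with a WT genotype and an age of 3 to 4 months, 1 as Sham and 1 as 2VO. The labels do not spell out 2VO, which is the common short name for tying off both common carotid arteries to lower blood flow to the brain; Sham is the surgery without it. The labels state neither the strain or sex of the rats nor whether RNA of several animals was pooled. The transgenic animals of that mouse line were not analysed here.

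Mitochondria keep a small genome of their own whose messages encode core subunits of the respiratory chain, and the mitochondrial ribosome translates them. Its ribosomal RNAs come from mitochondrial DNA, whereas all of its proteins are made in the cytosol from nuclear genes and imported. The ribosome has a large subunit, which forms peptide bonds and holds the exit tunnel for the new chain, and a small subunit, which reads the message. Many of its proteins descend from bacterial ribosomal proteins and others were added during the evolution of mitochondria. Neurons draw heavily on oxidative phosphorylation, and inherited defects of several of these genes cause disease of brain or heart. By subunit, 51 of the rat names belong to the large subunit, counting Mrps30 and Mrps18a, whose products sit there despite their names, and 26 to the small subunit. Of these, 30 and 16 were listed as having a bacterial homologue, and every other gene of the subunits was grouped as specific to mitochondria. Mrps36, now assigned to the 2-oxoglutarate dehydrogenase complex, and Mrps21l were placed in neither.

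The values are normalized expression values whose unit is not stated, here called units, and the depth of each library is unknown. Each group holds 1 library, so no difference has a replicate check, no test was run, and every comparison describes these libraries and not the conditions. No table names a gene of mitochondrial DNA (0 names), and the ribosomal RNAs that pair with these proteins were not analysed here. All 7 markers of hippocampal neurons listed to check the tissue were measured, and they summed to 2227 units in Sham, 2248 in 2VO and 1951 in the mouse, although 4 of the 7 were lower in 2VO, with a median ratio (defined below) of -0.07. Marker lists of other cells differed between the rats. Of 10 myelin markers 10 were higher in 2VO, with sums of 3870 units in Sham and 4863 in 2VO, and 5 of 6 ependymal markers were higher, with sums of 9.82 and 15.3. Choroid plexus markers summed to 1.49 and 6.86 units, with 2 of 6 measured and Sostdc1 listed at 0 in 2VO. Of 8 microglial markers 6 were lower in 2VO, with sums of 169.6 and 135.8 units, and of 6 astrocyte markers 4 were lower, with sums of 1293 and 872 but a median ratio of -0.03. Endothelial and blood markers summed to 30.6 and 276 units in Sham, and to 30.3 and 260.4 in 2VO. The mouse stood apart from both rats in several lists, summed over the marker names found there. Its sums were 1457 units for myelin, 567 for astrocytes, 126.8 for microglia and 7.58 for ependymal cells. They were 23.4 for choroid plexus, 30.2 for endothelium and 0.865 for blood, and Ly6c1 of the endothelial list had no rat row. Marker names absent from the mouse were not tallied, so a low mouse sum, as for blood, cannot be told apart from a missing name. The part of these lists in the values below was not tested, and in tissue RNA a change in cell numbers and a change in RNA per cell cannot be told apart.

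The genes were broadly expressed at moderate values in all 3 libraries. Their median was 15.2 units in Sham, 17.1 in 2VO and 14.0 in the mouse, and they held 0.432%, 0.451% and 0.441% of all summed values. In the mouse all 78 genes reached 1 unit, with values from 3.47 to 31.8. In Sham 77 of 79 did, with values up to 45.7, and in 2VO 78 of 79, with values up to 54.3. The 2 names under 1 unit in Sham were Mrps28, listed at 0, and Mrps21l, at 0.113, and Mrps21l was listed at 0 in 2VO. Large subunit genes had a median of 17.1 units in Sham, 18.8 in 2VO and 13.3 in the mouse, and small subunit genes 14.4, 16.2 and 14.4. Levels of different genes are set side by side on the deposited scale only, since nothing states whether it is per transcript length. By the mean of the 3 libraries the highest values belonged to Mrps21, Mrpl17, Mrps18a, Mrpl33 and Mrpl49. The lowest of the genes shared with the mouse were Mrps28, Mrpl1, Mrpl47, Mrpl40 and Mrpl32. This mean hides differences between species: Mrpl17 was the lowest gene in the mouse, at 3.47 units, and Mrpl30, the highest there at 31.8, was at only 2.23 in Sham and 3.05 in 2VO. Mrpl1, a protein of the arm next to the site where used tRNA leaves the ribosome, was 3.16 units in Sham, 3.16 in 2VO and 4.18 in the mouse, low in all 3 libraries. In the same order Mrpl49 was 34.7, 43.1 and 16.1 units, and Mrps18a was 35.6, 40.9 and 25.4, both highest in 2VO and lowest in the mouse.

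Between the rats the genes lay close together, with a small excess of higher values in 2VO. Each ratio below is the log2 of the 2VO value over the Sham value after adding 1 unit to both. It was taken for genes whose rat mean reached 1 unit, which 78 of the 79 did, Mrps21l being the exception. Of these 53 were higher in 2VO and 25 lower, or 67.9% higher, beside 58.7% of all 13550 genes measured. Their median ratio was 0.08, beside 0.04 over all genes, and the middle 50% of the genes ran from -0.04 to 0.23. These counts moved with the scaling: with the libraries brought to equal upper quartiles 41 were higher and 37 lower, or 52.6% higher, beside 47.8% of all genes. Medians this close to 0 can change sign with the scaling, as that of all genes went from 0.04 to -0.01. At least a 1.5-fold difference was reached by 4 genes higher in 2VO, where 1.51% of all genes passed, and by 0 genes lower, where 0.967% did. These 4 were Mrps28, Mrpl42, Mrpl22 and Mrpl23. The first 2 also passed 2-fold, as 0.244% of all genes did in that direction and 0.443% in either. The other 74 genes differed by less than 1.5-fold, and 46 of the 78 had a ratio within 0.2 of 0. Summed over measured genes, the large subunit came to 946 units in Sham and 1033 in 2VO, and the small subunit to 449 and 452.

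**Figure D1:**
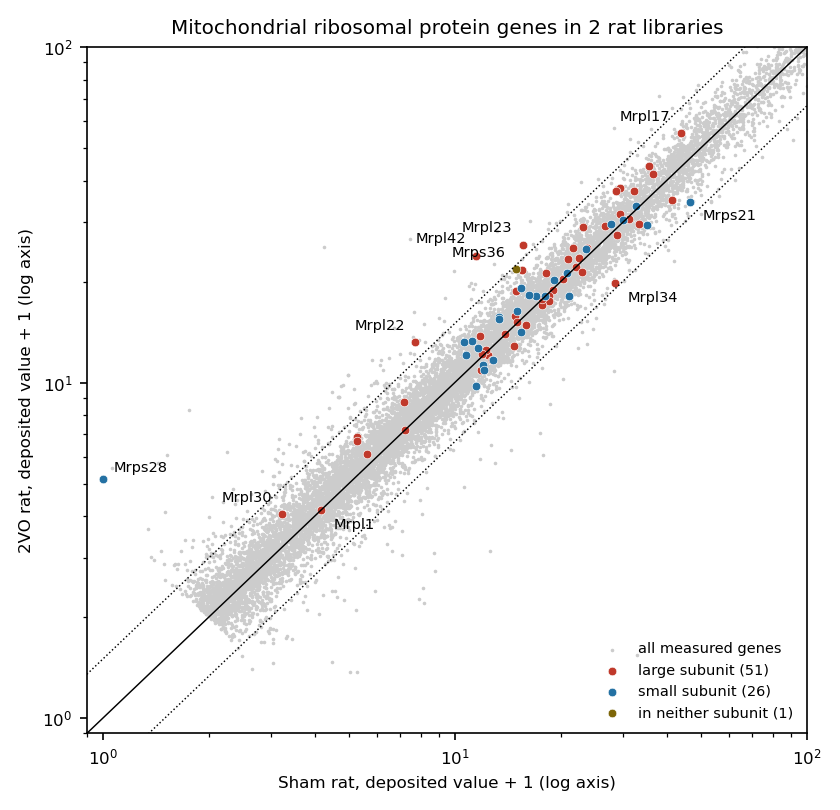
Deposited values plus 1 in the Sham rat (x axis, log scale) and the 2VO rat (y axis, log scale), with 1 point per gene. Grey points are all measured genes within the axes, coloured points the mitochondrial ribosomal protein genes; the solid line marks equal values and the dotted lines a 1.5-fold difference. Most coloured points lie between the dotted lines, and Mrps28, Mrpl42, Mrpl22 and Mrpl23 lie above them.

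In the large subunit 34 of 51 genes were higher in 2VO and 17 lower, with a median ratio of 0.06. The 6 genes grouped for the exit tunnel and its contact with the inner membrane stood at a median of 0.34. Of these 6 genes 5 were higher, beside 58.7% of all genes. The list was chosen with earlier results known and need not be complete. It includes Mrpl22 and Mrpl23, already named as past 1.5-fold, so its median is not evidence about the tunnel genes as a group. Mrpl22, whose bacterial relative lines the tunnel wall, was 6.73 units in Sham, 12.2 in 2VO and 9.93 in the mouse, a ratio of 0.77. Mrpl23, at the rim where the chain emerges, was 14.6, 24.7 and 21.4 units, a ratio of 0.72. For both genes the Sham library was the lowest of the 3. They were picked as past 1.5-fold higher in 2VO, so only the mouse value stands outside that choice. Mrpl17, also at the rim, was 42.9 units in Sham against 54.3 in 2VO, a ratio of 0.33. Mrpl47, another rim protein, was 4.29 against 5.69, a ratio of 0.34. Mrpl24 was close to equal, at 13.8 and 14.7 units. Mrpl45, which ties the ribosome to the inner membrane, was the 1 gene of the group lower in 2VO, at 11.7 and 10.6 units. For 4 of the 6 the RefSeq rat table names a pseudogene copy, and nothing states how reads that match a copy were assigned.

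Mrpl42, a protein of the large subunit without a bacterial homologue, was 10.5 units in Sham, 22.9 in 2VO and 31.1 in the mouse. Sham was again the lowest library, in a gene picked for its distance from 2VO and from the mouse. The ratio of Mrpl42, 1.05, was the highest of the subunit. The RefSeq table names 2 pseudogenes of Mrpl42 and a further gene, Mrpl42l1, which also carries Mrpl42 as a synonym. In the rat tables Mrpl42l1 was listed under its gene number at 0.0267 units in Sham, with 0.0465 in 2VO, and 1 of the pseudogenes was listed at 0 in both. Behind Mrpl42, Mrpl22 and Mrpl23 came Mrps30, a large subunit protein despite its name, at 14.6 units in Sham and 20.7 in 2VO, a ratio of 0.48. Mrpl32, a precursor cut to its mature form by the m-AAA protease of the inner membrane, was 4.29 and 5.90 units, a ratio of 0.39. Both were below 1.5-fold.

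At the other end of the large subunit, Mrpl34 was 27.6 units in Sham and 18.8 in 2VO, a ratio of -0.53. It was 11.4 units in the mouse, below both rats. Mrpl33 followed at 40.4 and 34.0 units, a ratio of -0.24. Mrpl51, Mrpl4 and Mrpl45 had ratios of -0.20, -0.17 and -0.13, so beyond Mrpl34 no large subunit gene was lower by more than 0.25 on this scale. The stalk proteins, which bring translation factors to the ribosome, barely differed: Mrpl10 was 18.0 and 17.8 units and Mrpl12 was 21.1 and 21.0. Mrpl11, at the base of the stalk, was 25.8 and 28.3. The 5 genes listed here for the central protuberance, the crown of the large subunit, had a median ratio of 0.01. This list too was chosen and need not be complete. Among the 5, Mrpl38 was lowest, at 17.5 and 16.5 units, and Mrpl40 highest, at 4.61 and 5.12.

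**Figure D2:**
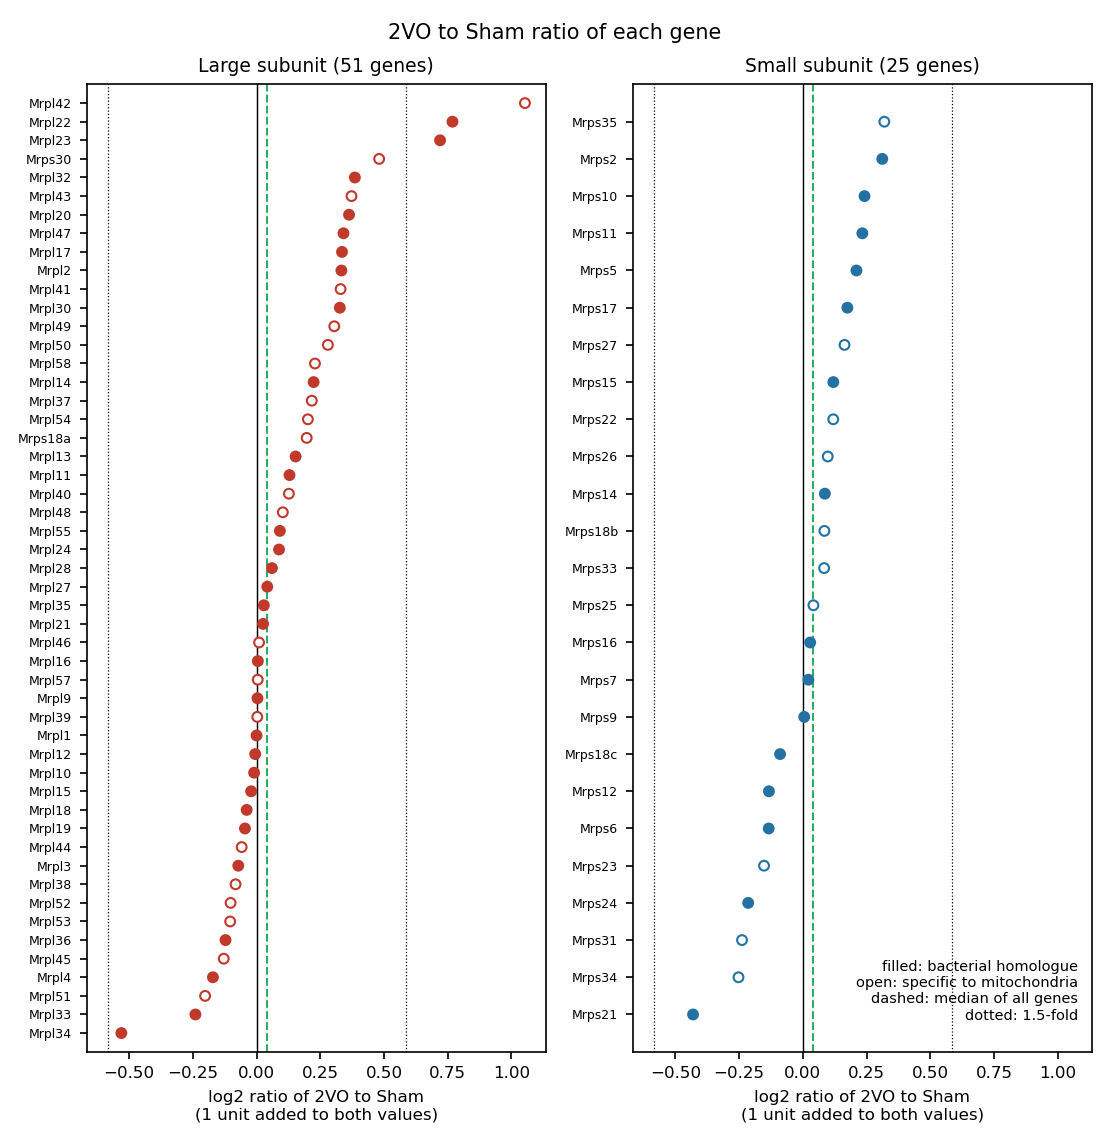
Log2 of 2VO over Sham, 1 unit added to both (x axis), for each gene (y axis, ordered by ratio), large subunit on the left and small subunit on the right. Filled points were listed as having a bacterial homologue and open points were grouped as specific to mitochondria. The dashed line is the median of all genes, 0.04, and dotted lines mark 1.5-fold. Mrps28, listed at 0 in Sham, is left out; Mrpl42, Mrpl22 and Mrpl23 lie beyond the dotted line, and no gene lies beyond it on the lower side.

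In the small subunit 18 of 26 genes were higher in 2VO and 8 lower, with a median ratio of 0.08. The Sham table lists Mrps28 at 0, while it was 4.17 units in 2VO and 5.02 in the mouse. A value of 0 can be a failed estimate, so no fold is given, and the gene counts among the 4 above only through the unit added before the log. The mouse and 2VO values of Mrps28 were close to each other. Mrps35 was 9.61 units in Sham and 12.2 in 2VO, a ratio of 0.32. Mrps2 was 14.4 and 18.1 units, a ratio of 0.31. Mrps10 and Mrps11, relatives of bacterial proteins of the small subunit head and platform, had ratios of 0.24 and 0.23. None of these reached 1.5-fold. Mrps21 was the lowest, at 45.7 units in Sham and 33.6 in 2VO, a ratio of -0.43, and at 27.3 in the mouse. Mrps34, a protein specific to mitochondria, was 34.1 and 28.4 units, a ratio of -0.25. Mrps31, Mrps24 and Mrps23 had ratios of -0.24, -0.21 and -0.15. Mrps12, whose bacterial relative guards decoding accuracy, was 14.5 and 13.1 units. Mrps36, outside the ribosome, was 13.9 and 20.7 units, a ratio of 0.55, just under 1.5-fold.

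By origin of the protein the medians lay close together, with no test of the difference. Genes with a bacterial homologue had a median of 0.04 over 46 genes, with 30 higher in 2VO. Genes grouped as specific to mitochondria, which are all other genes of the subunits, had a median of 0.10 over 31, with 22 higher. The lowest 2 ratios of all, of Mrpl34 and Mrps21, belonged to genes with a bacterial homologue, and so did 3 of the 4 genes past 1.5-fold. Mrps28, 1 of these 3, is listed at 0 in Sham and passed only through the unit added. Genes with a bacterial homologue are the larger class, 46 beside 31, so these counts do not mark them out.

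Short stretches of the rat promoters are shown for the genes furthest apart between the rats and for genes that share a known promoter element. RefSeq promoter windows of 300 bases, from 250 before to 50 after the start, were found by symbol for 64 genes, in the build GRCr8, which is not the build named for the rat data. There was none for Mrps28. Each line gives the 120 bases before the start, 5′ to 3′ on the gene's strand, for 3 genes past 1.5-fold and then for 3 genes with the NRF1 element. Capitals mark a match to GCGCATGCGC, the core bound by nuclear respiratory factor 1, an activator of genes for mitochondrial proteins, or to CCGGAAG, the core of ETS factors such as GABP.
Mrpl22 (chr10:42845790-42845909, plus strand): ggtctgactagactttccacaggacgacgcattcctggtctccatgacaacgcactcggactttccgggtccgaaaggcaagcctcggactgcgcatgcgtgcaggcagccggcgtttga
Mrpl23 (chr1:207116810-207116929, plus strand): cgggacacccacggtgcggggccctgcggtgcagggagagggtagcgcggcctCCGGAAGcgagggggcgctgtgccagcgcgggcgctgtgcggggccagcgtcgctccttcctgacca
Mrpl42 (chr7:32028523-32028642, minus strand): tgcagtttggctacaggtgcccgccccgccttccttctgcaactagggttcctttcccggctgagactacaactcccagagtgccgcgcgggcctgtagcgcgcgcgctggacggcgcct
Mrpl17 (chr1:169575700-169575819, minus strand): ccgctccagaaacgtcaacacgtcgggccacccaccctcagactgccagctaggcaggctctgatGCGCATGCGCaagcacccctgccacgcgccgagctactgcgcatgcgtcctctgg
Mrpl32 (chr17:55260531-55260650, plus strand): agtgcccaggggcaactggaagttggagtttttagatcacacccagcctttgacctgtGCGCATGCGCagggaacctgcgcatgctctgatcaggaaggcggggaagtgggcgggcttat
Mrps18b (chr20:2842886-2843005, plus strand): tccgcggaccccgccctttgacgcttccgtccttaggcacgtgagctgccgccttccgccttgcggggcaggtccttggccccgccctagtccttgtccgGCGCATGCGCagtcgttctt
The matches begin 67 bases before the start in Mrpl23, 55 in Mrpl17, 62 in Mrpl32 and 20 in Mrps18b, while the lines of Mrpl22 and Mrpl42 hold neither run of letters in full. Only exact matches were marked and counted. The lines of Mrpl22 and Mrpl17 also hold, unmarked, a run that differs from GCGCATGCGC in its last letter only.

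Over whole windows and both strands, GCGCATGCGC was found in 4 of the 64 genes, or 6.25%, beside 1.16% of 19005 protein-coding genes. CCGGAAG was found in 21, or 32.8%, beside 11.6%. AAGATGGC, the core bound by YY1, a factor that often binds at the start itself, was found in 15, or 23.4%, beside 4.08%. The core promoter element TATAAA was found in 8, or 12.5%, beside 14.0%. These 8 include Mrpl46 and Mrps11, which start back to back with overlapping windows, so the match shown for them below counts for both. CCGGAAG and AAGATGGC can share letters, but in 0 of the 64 genes did matches to any 2 of the elements share bases. The 4 elements were picked as known ones with the counts in view, and a match is a description of letters only. The 19005 genes were not limited to genes measured here, so these shares do not show what is particular to this family among expressed genes. The 15 genes with AAGATGGC had a median ratio of 0.20 between the rats, with 13 higher in 2VO, and the 49 without it 0.06, with 32 higher. The 21 genes with CCGGAAG had a median of 0.04 and the 43 without it 0.09. The genes with GCGCATGCGC, Mrpl17, Mrpl32, Mrpl44 and Mrps18b, ran from -0.06 to 0.39.

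Many of the genes start back to back with another gene. Of the 64 genes 17, or 26.6%, had a protein-coding neighbour on the other strand starting within 1000 bases upstream, beside 7.22% of all 19005. The latter again include genes not measured here. Mrpl46 of the large subunit and Mrps11 of the small subunit share such a stretch of 233 bases between their starts, shown on the plus strand, which reads toward Mrps11, with capitals marking TATAAA.
Mrpl46 to Mrps11 (chr1:142117031-142117263, plus strand): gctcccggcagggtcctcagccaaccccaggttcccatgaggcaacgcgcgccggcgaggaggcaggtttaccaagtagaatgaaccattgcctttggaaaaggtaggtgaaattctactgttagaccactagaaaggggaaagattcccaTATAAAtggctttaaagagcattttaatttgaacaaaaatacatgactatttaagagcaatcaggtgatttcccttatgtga
The match begins 82 bases before the start of Mrps11, and whether it acts as a promoter element was not tested. Mrpl46 was 14.0 units in Sham and 14.1 in 2VO, and Mrps11 was 12.3 and 14.7. Mrpl47 lies beside Ndufb5, a complex I subunit gene, and both were higher in 2VO, at 4.29 and 5.69 units and at 36.1 and 46.9. Mrpl49 lies beside Fau, which encodes a cytosolic ribosomal protein as a fusion, and they differed in direction, at 34.7 and 43.1 units and at 297 and 274. Mrpl40 lies beside the histone chaperone gene Hira, at 4.61 and 5.12 units and at 17.1 and 12.5. Over the 14 pairs with both genes measured, 7 had the same sign as deposited and 4 under each of the 3 rescalings and lowess centring. Of the neighbours in these pairs 0 reached 1.5-fold, where 2.48% of all genes passed. With so few pairs this does not set the neighbours apart. These neighbours were named after their values were seen.

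Copies in the genome are common for this family. The RefSeq rat table names 40 pseudogenes and 4 genes with a like suffix, which together belong to 24 of the 79 names. Only 4 of these 44 copies had a row in the rat tables. The 24 genes with a named copy had a median ratio of 0.21 and 19 of them were higher in 2VO. The 54 measured genes without one had a median of 0.03, below that of all genes, and 34 were higher. Of the 4 genes past 1.5-fold, Mrpl42 and Mrpl23 have a named copy, and Mrpl22 and Mrps28 do not. Whether copies bear on these ratios was not tested.

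Further genes of mitochondrial translation and of mitochondria in general were taken from 6 chosen lists. Of 5 mitochondrial ribosomal proteins that carry other names 2 were higher in 2VO and 3 lower, with a median ratio of -0.10. Chchd1 was the lowest, at 27.7 units in Sham and 22.1 in 2VO, and Ptcd3, which meets the incoming message on the small subunit, the highest, at 14.0 and 16.3. Of 23 assembly and RNA modification factors 10 were higher and 13 lower in 2VO, and the median was -0.01. Mterf4, which guides a methyltransferase to the large ribosomal RNA, was 4.65 and 6.54 units, and Eral1, a chaperone of the small ribosomal RNA, was 12.8 and 10.7. Of 15 translation factors 10 were higher, with a median of 0.05. Mtrf1, a release factor homologue, was 4.70 and 6.19 units, and the initiation factor Mtif2 was 8.81 and 6.57. Of 20 genes for charging mitochondrial tRNAs 12 were higher, with a median of 0.03, running from Pars2, at 3.08 and 2.38 units, to Mars2, at 1.431 and 2.096. Of 10 measured genes of mitochondrial transcription and RNA processing 6 were higher, with a median of 0.07. Hsd17b10, a subunit of mitochondrial RNase P, was 21.1 and 24.7 units, and the RNA polymerase gene Polrmt was 10.8 and 9.56. General genes of mitochondrial content had a median of 0.10, with 12 of 17 higher. Immt, which shapes the cristae, was 33.5 and 41.5 units, and the import receptor gene Tomm20 was 107.1 and 103.1. Together these 6 lists hold 90 measured genes, with 0 past 1.5-fold in either direction, where 2.48% of all genes passed.

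**Figure D3:**
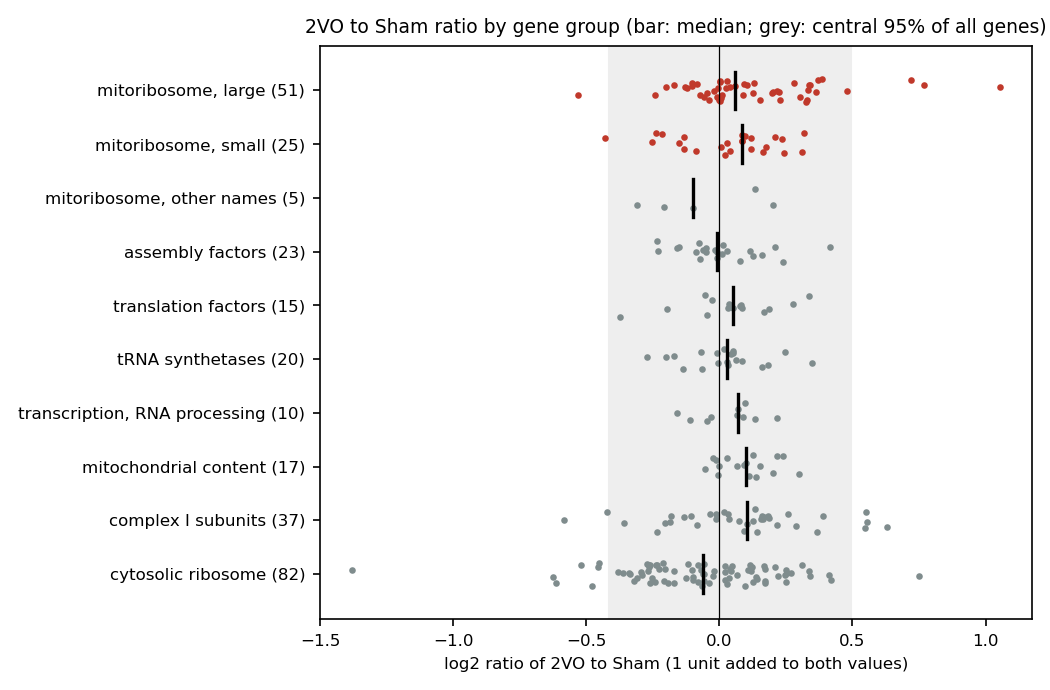
Log2 of 2VO over Sham, 1 unit added to both (x axis), for each gene of a group (y axis, number of genes in brackets), with the group median as a bar. The grey band is the central 95% of all measured genes, from -0.41 to 0.50, and Mrps28 is left out. The medians of the mitochondrial groups lie between -0.10 and 0.10, and the points of the large subunit reach furthest to the right.

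The mitochondrial ribosomal genes were set beside 2 related classes, the cytosolic ribosome and complex I. Cytosolic ribosomal protein genes had a median ratio of -0.06, with 34 of 82 higher in 2VO, and complex I subunit genes a median of 0.10, with 24 of 37 higher. At least a 1.5-fold difference was reached by 4 of 82 and 1 of 37, or 4.88% and 2.70%, beside 5.13% of the mitochondrial ribosomal genes and 2.48% of all genes. The 5.13% counts Mrps28, listed at 0 in Sham, which passed the filter only through 2VO and whose ratio is set by the unit added. The share is therefore not evidence of a difference from the other classes. The middle 50% of ratios spanned 0.38 in the cytosolic class, 0.28 in the mitochondrial class and 0.27 in complex I, beside 0.25 over all genes. The classes differed in level, with medians in Sham of 164.6 units for the cytosolic ribosome, 54.4 for complex I and 15.6 for the measured mitochondrial ribosomal genes. With 1 library per group the difference between the classes was not tested.

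The mouse library, without a partner of its own species, was set beside the rats as levels. Among the 16251 shared symbols the genes held similar ranks as a class, with a median rank percentile of 74.7 in Sham, 76.0 in 2VO and 74.1 in the mouse. Gene by gene the order differed between the species. Spearman's rho across the 78 genes was 0.33 between mouse and Sham and 0.93 between the rats, beside 0.87 and 0.99 over 11457 shared genes. Genes of a library are not independent, so these are descriptions. In the mouse the 78 genes ran only from rank percentile 44.6 to 89.2 of the shared symbols. A narrow range of levels by itself lowers a rank correlation, so their rho and that over all shared genes cannot be compared directly. With 1 unit added, 6 genes were at least 2-fold higher in the mouse than in Sham and 11 at least 2-fold lower, or 7.69% and 14.1%, beside 6.17% and 11.5% of shared genes. Against 2VO the counts were 2 and 12, beside 4.98% and 11.4%. Both comparisons use the same mouse library.

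Mrpl30 was the gene furthest above the rats in the mouse, at 31.8 units beside 2.23 in Sham and 3.05 in 2VO. It is also the gene with the most named copies, as the RefSeq rat table lists 9 pseudogenes of it, and 0 of them had a row in the rat tables. Mrpl42, Mrps28, Mrpl32 and Mrpl40 completed the 5 whose rank in the mouse lay furthest above that in Sham. Mrpl32 was 11.9 units in the mouse and Mrpl40 11.0, above both rats. Mrpl42 and Mrps28 lay nearer the mouse in 2VO than in Sham. Both were picked for a mouse rank far above that in Sham and are past 1.5-fold higher in 2VO. Their order therefore follows largely from the choice, and Mrps28 is listed at 0 in Sham.

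Mrpl17 was furthest the other way, with 42.9 units in Sham, 54.3 in 2VO and 3.47 in the mouse. It was the lowest gene of the family in the mouse and the highest in 2VO. Mrpl15, a core protein of the large subunit, was 30.2, 29.7 and 4.43 units. Mrps25 was 31.7, 32.7 and 8.01, Mrpl57 was 16.7, 16.7 and 5.89, and Mrpl54 was 31.4, 36.2 and 10.4. For these 5 genes both rats lay above the mouse and within 1.5-fold of each other. A named copy in the rat was found for 8 of the 17 genes at least 2-fold apart between mouse and Sham and for 16 of the other 61. Mouse copies were not analysed here, and the part of copies in these gaps was not tested.

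**Figure D4:**
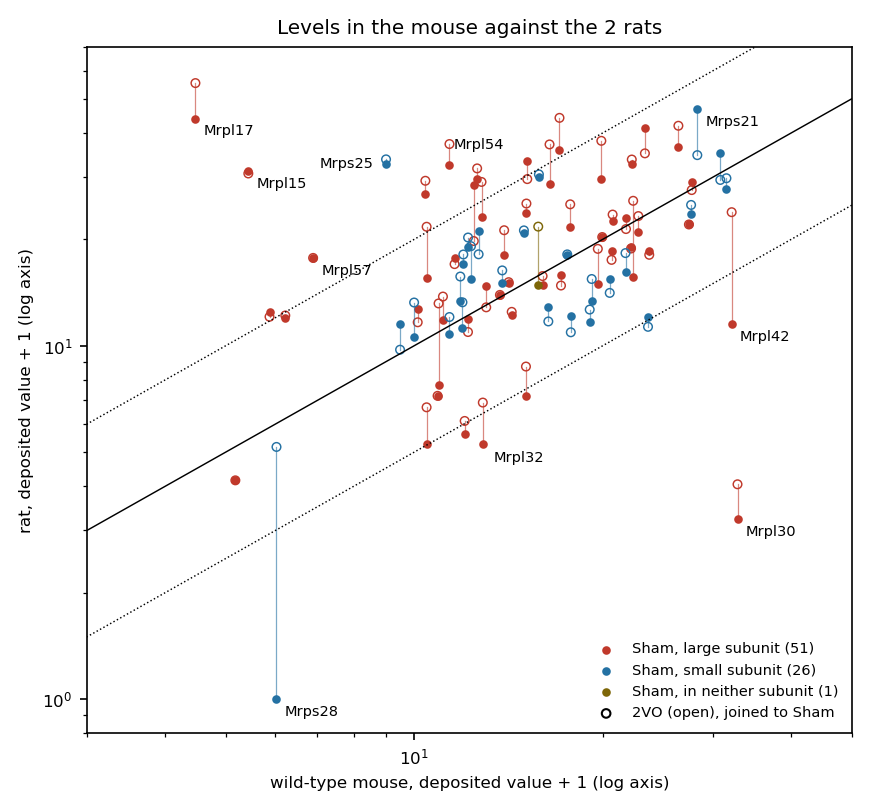
Deposited values plus 1 in the wild-type mouse (x axis, log scale) and in the rats (y axis, log scale) for the 78 shared genes; filled points are Sham and open points 2VO, joined by a line for each gene. The solid line marks equal values and the dotted lines a 2-fold difference. Mrpl17 and Mrpl15 lie far above the lines and Mrpl30 far below, while Mrps28 and Mrpl42 have the longest lines between the rats.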

How the data were processed

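Hippocampal total RNA was made into libraries with a TruSeq RNA kit, per the labels' protocols. Per the submitters' processing notes the builds were mRatBN7.2 and GRCm39, and the tools DESeq2, HISAT2 2.1.0 and fastp 0.21.0, with no role given for any. The authors deposited 1 column of normalized expression signal per library, with its unit, quantifier and filters not given in the sources used here. Depth is therefore unknown, and no counting interval is given. Libraries were grouped by their titles and used as deposited. The log2 ratio of 2VO to Sham used 1 added unit and a mean of at least 1 unit, with no test.

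The genes and lists were chosen with earlier results of these data known. The rule for named genes took members past 1.5-fold, listed at 0, crossing 1 unit between the rats, the 5 highest and 5 lowest ratios per subunit, the 5 highest and lowest levels, the 5 largest rank gaps each way between mouse and Sham, and the extremes of each list. Other members are examples picked with their values in view. Among rat names 78 of 79 matched a RefSeq GRCr8 symbol, and Mrps36 matched as a synonym of Kgd4. Copies were found by name, with rows matched by symbol or gene number. Twnk, Prorp and Phb1 of the lists had no rat row.

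Alternatives were 3 scalings, 0.25 or 4 added units, a rat mean of 5 units or no filter, and centring on a lowess trend (span 0.3). Leaving out genes with a named copy, and the rescaling of neighbour pairs, were added after the data were seen. A median was called moved when it shifted by more than 0.1. The calculation was tested on simulated data. The software was Python 3.11.15, numpy 2.4.6, pandas 2.3.3, statsmodels 0.14.6, scipy 1.17.1 and matplotlib 3.10.9.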

Additional observations from a re-analysis of the deposited data

How the results depend on the processing

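The median ratio of the genes stayed above 0 in all settings tried, from 0.03 with the libraries scaled to equal upper quartiles, or without genes that have a named copy, to 0.09 with 0.25 units added, beside 0.08 as reported. The medians of both subunits also stayed above 0, down to 0.0062 for the large subunit with equal upper quartiles. A median above 0 is not an excess over all genes, whose own median went from 0.04 to -0.01 with equal upper quartiles. Without genes that have a named copy, on the deposited scale, the median lay below that of all genes, and 26 of 54 genes lay above the latter. Counts of genes higher and lower in 2VO were 41 and 37 with equal upper quartiles and with median-of-ratios scaling, and 43 and 35 with lowess centring and when the 50 most abundant genes were left out of the scaling sum. Without genes that have a named copy, 34 were higher and 20 lower, and 2 reached 1.5-fold; this setting tests 54 genes in place of 78. With a mean of at least 5 units Mrps28 drops out and 3 genes reached 1.5-fold, and in the other settings 4 did. None was 1.5-fold lower in any setting, but with equal upper quartiles Mrpl34 came to -0.58, only just short of it. The ratio of Mrps28 is set by the unit added, at 4.14 with 0.25 units and 1.03 with 4. With 4 units added Mrpl42 was at 0.89, Mrpl22 at 0.59, Mrpl32 at 0.26, Mrpl47 at 0.23 and Mrpl30 at 0.18, beside 1.05, 0.77, 0.39, 0.34 and 0.33 as reported. Of the 78 genes 12 changed sign between settings, Mrpl46, Mrpl57, Mrps7 and Mrps25 among them, all with ratios of at most 0.04 in size as reported. No paired analysis was possible because each group holds 1 library. The unknown depth and the single library limit every value here.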
